A study of Mus musculus with 10 samples.

Results

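The cytochrome P450 genes of primary mouse hepatocytes were described across 5 treatment groups, together with Por, the reductase that passes electrons to the P450s of the endoplasmic reticulum. Members were chosen by symbol alone, as Cyp followed by a number, letters and a number, without Cyp51 and without pseudogenes, and the rule uses no measured value. The rule gave 84 members among the 18055 genes listed in any library. The hepatocytes came from wild-type C57BL/6 mice by collagenase perfusion, and all groups were cultured in DMEM, with serum at first and without serum from the night before treatment. The Vehicle group received no free fatty acid (FFA). The PA group received 200 μM palmitate, a saturated FFA, and the LA group 12 μM linoleate, a polyunsaturated FFA, each for 24 h. The PA+NTP and LA+NTP groups were first given 0.4 NU/mL Neurotropin (NTP), a protein-free extract of inflamed rabbit skin, for 1 h. Each group had 2 libraries, no group received NTP without an FFA, and the age and sex of the mice were not given in the sources used here.

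P450 enzymes are heme proteins that insert an atom of oxygen into their substrates, and hepatocytes hold more of them than other cells of the body. Families 1 to 3 mainly oxidize drugs and other foreign compounds, family 4 adds a hydroxyl group at or near the methyl end of fatty acids and eicosanoids, and families 7, 8, 27 and 39 turn cholesterol into bile acids. P450 expression in liver is known to depend on nuclear receptors and on hepatocyte transcription factors such as HNF4A, and it is known to decline when hepatocytes are placed in culture.

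By role, 43 members belonged to xenobiotic and drug metabolism, 22 to fatty acid oxidation, 6 to bile acid and cholesterol metabolism, 6 to vitamin D and retinoid metabolism and 5 to steroid hormone synthesis. The remaining members were Cyp20a1, whose substrate is not known, and Por. Of the 84 members, 60 passed edgeR's filter on low counts and were tested, and the 24 others reached no more than 15 counts in any library and 67 counts over all 10. The tested members comprised 31 of the xenobiotic group, 19 of the fatty acid group, 4 of the bile acid group, 3 of the vitamin group and 1 of the steroid group, with Cyp20a1 and Por.

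The libraries held between 13142588 and 60046937 expected counts, the reads that RSEM assigns to genes. In all 10 libraries the hepatocyte marker Alb stood between 1929 and 2818 FPKM (fragments per kilobase of transcript, scaled to library size), while Pck1 was at most 0.42 FPKM and Cps1 at most 4.61 FPKM. Summed over 11 hepatocyte markers, the level was 6765 and 7253 FPKM in Vehicle, between 4453 and 4959 in PA, between 5104 and 6020 in PA+NTP, between 7211 and 7248 in LA and between 7812 and 8246 in LA+NTP. T cell markers summed to at most 0.89 FPKM. The 7 Kupffer cell markers summed to 217 and 218 FPKM in Vehicle, up to 252 in PA, up to 312 in PA+NTP, at most 143 in LA and up to 206 in LA+NTP. Most of each sum was Cd68, at 203 FPKM in both Vehicle libraries and 122 and 126 in LA. Clec4f and Adgre1 were at most 1.12 FPKM in any library. A summed marker level in bulk RNA cannot tell apart fewer hepatocytes, less RNA per hepatocyte and changes in single genes. How far a gene stood from its own mean went with transcript GC content, across genes, at Spearman's rho values of -0.466 and -0.469 under PA, -0.553 and -0.556 under LA, and between 0.34 and 0.56 for the 6 others. Values after removal of that trend are therefore given beside each comparison, since the median GC content was 48.2% for the members and 50.5% for all genes.

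Sequences before the start of transcription are shown for members on which the results turn. The Cyp2d9 and Cyp2d10 genes lie on chromosome 15 and moved together in PA, Cyp1a1 on chromosome 9 rose in PA, and Cyp2a4 and Cyp2a5 on chromosome 7 are near copies with very different levels. The letters run 5′ to 3′ on the gene's strand and come from RefSeq on GRCm38.p6, the assembly also named mm10, and GCGTG, the core of the site bound by the aryl hydrocarbon receptor, is in capitals where it occurs.
Cyp2d10, minus strand, chr15:82407254-82407444: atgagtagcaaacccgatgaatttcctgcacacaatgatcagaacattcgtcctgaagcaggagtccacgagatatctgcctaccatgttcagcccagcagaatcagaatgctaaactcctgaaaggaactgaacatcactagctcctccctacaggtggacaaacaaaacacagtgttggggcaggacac
Cyp2d9, plus strand, chr15:82452127-82452376: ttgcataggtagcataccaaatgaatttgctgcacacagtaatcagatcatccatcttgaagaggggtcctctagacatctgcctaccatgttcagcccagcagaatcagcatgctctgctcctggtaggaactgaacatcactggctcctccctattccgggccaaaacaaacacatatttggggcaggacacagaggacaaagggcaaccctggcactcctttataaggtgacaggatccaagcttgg
Cyp1a1, plus strand, chr9:57697363-57697612: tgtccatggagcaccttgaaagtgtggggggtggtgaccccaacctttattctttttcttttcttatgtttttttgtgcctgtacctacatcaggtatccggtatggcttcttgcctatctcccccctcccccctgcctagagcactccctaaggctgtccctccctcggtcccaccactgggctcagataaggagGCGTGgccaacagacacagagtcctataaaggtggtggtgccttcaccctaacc
Cyp2a4, plus strand, chr7:26306942-26307191: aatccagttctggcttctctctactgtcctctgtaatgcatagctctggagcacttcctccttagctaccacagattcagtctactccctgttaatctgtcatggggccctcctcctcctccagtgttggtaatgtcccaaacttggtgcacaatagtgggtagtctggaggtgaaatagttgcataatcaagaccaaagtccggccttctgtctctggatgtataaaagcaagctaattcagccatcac
Cyp2a5, plus strand, chr7:26835089-26835338: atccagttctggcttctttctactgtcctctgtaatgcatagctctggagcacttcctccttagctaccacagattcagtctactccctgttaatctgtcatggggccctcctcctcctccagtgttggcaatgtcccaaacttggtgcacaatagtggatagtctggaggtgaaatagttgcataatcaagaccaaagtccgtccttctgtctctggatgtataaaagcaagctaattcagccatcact

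The Cyp2a4 and Cyp2a5 windows were 97.6% identical over 251 aligned columns, and those of Cyp2d9 and Cyp2d10 82.3% identical over 254, in windows of 250 bases. The Cyp2d10 window is printed only as far as its longest annotated transcript, and the Cyp1a1 window, which precedes one of its transcripts, lies within the span of a longer gene model. RefSeq windows were at hand for 63 members, with 71 windows in all. GCGTG or its reverse complement CACGC was found in 14 of the 71 member windows (19.7%) and in 28.2% of the 32851 windows of all genes. AGGTCA or its reverse complement TGACCT, a nuclear receptor half-site, was found in 14 member windows (19.7%) and in 14.0% of all windows. These matches are letters in a sequence and were not tested as binding sites.

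In Vehicle hepatocytes, P450 transcripts were led by Cyp2a5, a coumarin hydroxylase. Its level was 327 and 354 FPKM in the 2 libraries, which made up 34.3% of the 991 FPKM summed over all members. Por followed with 69.7 and 69.6 FPKM, then Cyp4v3, a fatty acid hydroxylase, with 67.0 and 66.0 FPKM, Cyp27a1, the mitochondrial sterol 27-hydroxylase, with 56.9 and 53.7 FPKM, and Cyp3a13, a drug-metabolizing enzyme, with 44.0 and 40.9 FPKM. These 5 members carried 57.9% of the summed level. The spread between libraries did not bridge the gap from Cyp2a5 to Por, and Por, Cyp4v3, Cyp27a1 and Cyp3a13 followed each other without overlap.

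Among the 84 members, 19 reached a Vehicle mean of 10 FPKM, 40 reached 1 FPKM, and 44 stayed under 1 FPKM. P450s best known from liver tissue ranged from well expressed to almost absent. Cyp2e1, the ethanol-oxidizing P450 of pericentral hepatocytes, was at 18.94 and 17.97 FPKM in Vehicle. Cyp7a1, the rate-limiting enzyme of the main route of bile acid synthesis, was at most 0.02 FPKM in any of the 10 libraries. Cyp8b1, the sterol 12-hydroxylase, was at 0.55 and 0.31 FPKM, and the steroidogenic Cyp17a1 stayed at or under 0.07 FPKM throughout. Cyp24a1, which degrades vitamin D, was listed at 0 in 9 of the 10 libraries, where a table lists no gene under 0.01 FPKM.

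**Figure D1:**
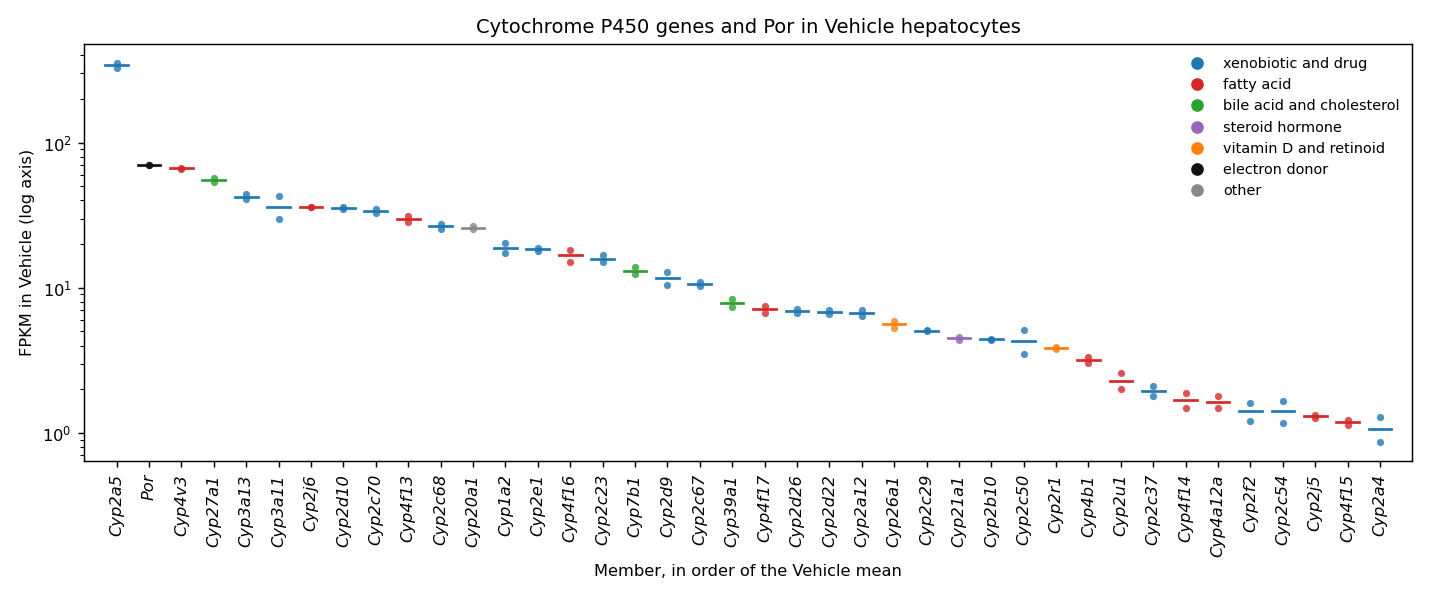
FPKM (log axis) of the 40 members with a Vehicle mean of at least 1 FPKM, in order of that mean. Points are the 2 Vehicle libraries, short lines their means and colors the roles. Cyp2a5 stands alone above 300 FPKM, and 19 members lie at or above 10 FPKM.

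The first comparison asked which P450 genes responded to palmitate. With PA, 12 of the 60 tested members fell and 2 rose relative to Vehicle. A call required a 1.5-fold change or more and, by edgeR's quasi-likelihood test, a Benjamini-Hochberg adjusted p below 0.05 over 14097 genes. Among all tested genes, 8.92% were called as lower, 6.00% as higher and 14.9% in either direction, against 20%, 3.3% and 23.3% of the tested members. The median log2 fold change was -0.28 over the tested members and -0.01 over all tested genes, and 23.3% of the tested members had a positive value. Falls were found in the drug-metabolizing Cyp2d subfamily, in the fatty acid hydroxylases of family 4 and in Cyp21a1, Cyp2u1, Cyp2c29 and Cyp2a4. The p-values measure the spread between libraries, and nothing in the sources says that the libraries of a group came from separate cultures. With 2 libraries against 2, no exact permutation test of a single gene can go below 0.333.

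Cyp2d10 was the most abundant member that fell. Its level was 34.7 and 35.9 FPKM in Vehicle, 14.1 and 15.0 in PA, 32.9 and 24.1 in PA+NTP, 27.0 and 24.9 in LA, and 51.0 and 45.2 in LA+NTP. Both PA libraries lay below every other library. The log2 fold change in PA was -1.24 ± 0.12 (SE, n = 2 libraries per group) with an adjusted p of 2.65e-06 from edgeR's quasi-likelihood test. Cyp2d10 shares 50.2% of its 31-base sequences with other transcripts, most of all those of Cyp2d11, so its counts are uncertain to that extent.

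Of the other 5 tested Cyp2d genes, 3 also fell. Cyp2d22, which shares only 6.9% of its 31-base sequences, went from 7.0 and 6.65 FPKM in Vehicle to 3.34 and 3.07 in PA. Cyp2d9, which shares 34.8%, went from 12.8 and 10.5 FPKM to 7.33 and 5.72, and Cyp2d26 from 7.13 and 6.71 to 4.89 and 3.52. In none of the 3 did the PA libraries overlap those of Vehicle. Their log2 fold changes were -1.07 for Cyp2d22, -0.84 for Cyp2d9 and -0.75 for Cyp2d26. The other tested genes, Cyp2d40 at 0.77 and 0.07 FPKM in PA and Cyp2d13 at 0.22 and 0.05, overlapped with their Vehicle levels of 0.52 and 0.33 and of 0.21 and 0.24, and were not called. Without PA replicate 2, the calls of Cyp2d9 and Cyp2d26 were lost, at -0.63 and -0.47.

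Cyp21a1, the steroid 21-hydroxylase best known from the adrenal cortex, was the only steroidogenic member expressed at a level that could be tested. It was at 4.58 and 4.39 FPKM in Vehicle and at 1.37 and 1.64 FPKM in PA. The log2 fold change was -1.5 ± 0.20 (SE, n = 2 libraries per group; adjusted p = 3.29e-05 by edgeR's quasi-likelihood test), and both PA libraries were lower than all others. Of its 31-base sequences, 33.2% are shared, mostly with the pseudogene Cyp21a2-ps.

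In the fatty acid group 5 of 19 tested members fell with PA and none rose. Cyp4a12a, an arachidonic acid ω-hydroxylase, went from 1.48 and 1.80 FPKM in Vehicle to 0.70 and 0.83 in PA, a log2 fold change of -1.06. Cyp2u1, a fatty acid hydroxylase outside family 4, went from 2.0 and 2.58 to 1.14 and 1.03 FPKM, a log2 fold change of -1.07. In the Cyp4f subfamily, whose enzymes hydroxylate leukotrienes and other eicosanoids, Cyp4f15, Cyp4f14 and Cyp4f17 changed by -1.24, -0.86 and -0.59 on the log2 scale, the last just past the fold threshold. Cyp4a12a shares 62.2% of its 31-base sequences, mostly with Cyp4a12b, so reads of that pair are uncertain. Without PA replicate 2 or Vehicle replicate 1 the calls of Cyp4f14 and Cyp4f15 were lost, that of Cyp4f15 also without Vehicle replicate 2, and that of Cyp4f17 without Vehicle replicate 2, PA replicate 1 or either PA+NTP library.

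The classical targets of the fatty acid receptor PPARα did not pass the test in any comparison. Cyp4a10 was at 0.67 and 0.37 FPKM in Vehicle, 0.47 and 0.51 in PA and 0.82 and 0.59 in LA. Cyp4a14 was at 0.55 and 0.33 FPKM in Vehicle, 0.18 and 0.52 in PA and 0.44 and 0.39 in LA. For both genes the PA and the LA libraries overlapped those of Vehicle, and the standard errors of the log2 fold changes were 0.41 to 0.47, so differences of that size were not detectable at this depth. The epoxygenase Cyp2j6 was at 35.8 FPKM in both Vehicle libraries and 37.4 and 38.7 in PA, with a log2 difference of 0.12 ± 0.06 (SE, n = 2 libraries per group) that turned to -0.21 with the GC trend removed.

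Cyp1a1 and Cyp3a13 rose with PA. Cyp1a1, the hydrocarbon hydroxylase that the aryl hydrocarbon receptor induces, was at 0.29 and 0.32 FPKM in Vehicle and at 1.11 and 0.66 FPKM in PA. Its log2 fold change was 1.55 ± 0.37 (SE, n = 2 libraries per group; adjusted p = 0.00333 by edgeR's quasi-likelihood test). Both PA libraries were above the 8 others, which ranged from 0.29 to 0.44 FPKM. Cyp1a2, its neighbor on chromosome 9, was at 20.2 and 17.4 FPKM in Vehicle and 15.1 and 11.8 in PA, a log2 difference of -0.48 that missed the fold threshold.

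Cyp3a13 was at 44.0 and 40.9 FPKM in Vehicle and at 63.7 and 71.0 in PA, a log2 fold change of 0.70. The other abundant member of its subfamily, Cyp3a11, a major steroid and drug hydroxylase of mouse liver, differed widely between replicates and was not called. It was at 42.6 and 29.8 FPKM in Vehicle, 42.4 and 20.1 FPKM in PA and 60.8 and 42.6 FPKM in LA. Replicate 1 was above replicate 2 in every group, and a fit without a replicate block counts this offset as spread. The standard error of its log2 difference between PA and Vehicle was 0.35.

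Cyp2a4, a testosterone 15α-hydroxylase, had the largest fall in PA but rests on few reads. It had 28 and 59 counts in Vehicle, 8 and 6 in PA, 5 and 7 in PA+NTP, 75 and 28 in LA, and 36 and 169 in LA+NTP. The log2 fold change in PA was -2.65 ± 0.68 (SE, n = 2 libraries per group), and the call was lost without PA replicate 2. Cyp2a4 shares 58.1% of its 31-base sequences and Cyp2a5 54.6%, each most of all with the other. Cyp2a5 had 6851 counts or more in every library, and Cyp2a4 amounted to between 0.025% and 0.44% of them. The counts of both are uncertain to that extent, those of Cyp2a4 most, since few reads set its level. Cyp2a5 itself was at 299 and 348 FPKM in PA, a log2 difference of -0.04 from Vehicle.

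In the Cyp2c subfamily, whose members oxidize drugs and arachidonic acid, 1 of 11 tested genes was called with PA. Cyp2c29 went from 5.10 and 5.05 FPKM in Vehicle to 3.11 and 3.25 in PA, a log2 fold change of -0.63. Cyp2c70, which makes the muricholic bile acids of rodents, was at 34.8 and 32.8 FPKM in Vehicle and 24.1 and 20.7 in PA, a difference of -0.57 that stayed just short of the fold threshold. Bile acid genes as a role gave no call among 4 tested with PA. On the log2 scale Cyp27a1 differed by -0.28, Cyp39a1 by -0.06 and Cyp7b1, the oxysterol 7α-hydroxylase, by 0.33. Cyp8b1 differed by -0.84, past the fold threshold but on few reads, with 20 and 16 counts in Vehicle and 10 and 11 in PA. Scaled to library size it was at 0.55 and 0.31 FPKM in Vehicle and 0.39 and 0.14 in PA, which overlap. With the GC trend removed Cyp7b1 stood at -0.01.

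Removal of the GC trend altered which members were called with PA more than how many. Of the 14 calls, 10 were kept, and 15 members were called in all, 13 lower and 2 higher. Over all 14097 tested genes, 1238 were then called. The calls of Cyp2d26, Cyp3a13, Cyp4f14 and Cyp4f17 were lost, with log2 fold changes of -0.58, 0.36, -0.72 and -0.39. Calls were added for Cyp2c38, Cyp2c67, Cyp2c68, Cyp2c70 and Cyp4f37. Median GC content was 53.6% over the members that fell and 46.6% over the uncalled members. The median log2 fold change over the tested members became -0.39.

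Markers of cell types moved beside these P450 genes. Of 11 tested hepatocyte markers, 5 fell with PA and none rose, namely Apoa1 (-1.32), Ahsg (-1.13), Ttr (-0.94), Apoa2 (-0.77) and Serpina1a (-0.73), as log2 fold changes. Among 6 markers of pericentral hepatocytes, Oat rose by 0.85, and their sum was between 48.0 and 50.2 FPKM in PA against 52.3 and 52.5 in Vehicle. Of 7 Kupffer cell markers, Marco and Lyz2 rose and Cd5l fell, and of 6 stellate cell markers Col1a1, Acta2 and Lrat fell, their sum going from 18.8 FPKM in both Vehicle libraries to between 12.1 and 13.4. No endothelial marker was called of 5 tested, the cholangiocyte marker Krt19 fell, and the single erythroid marker listed was at most 0.14 FPKM. The part of these cell types in the P450 values was not tested.

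**Figure D2:**
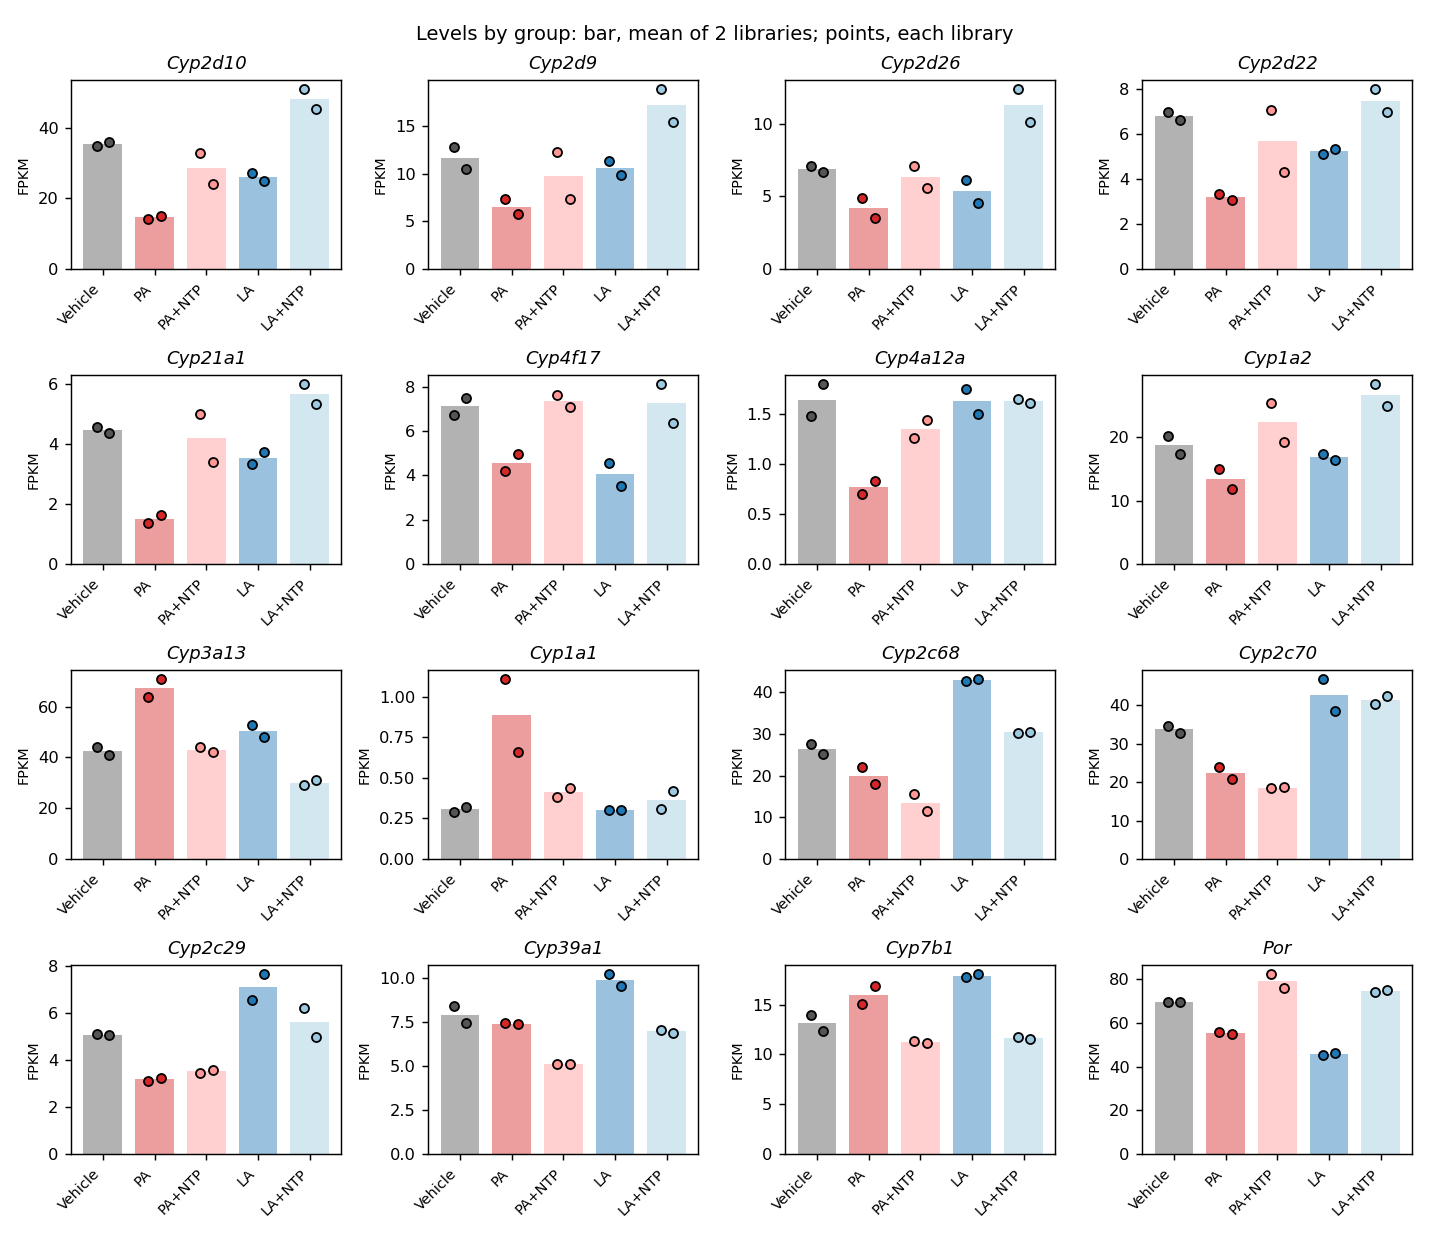
FPKM of 16 members in the 5 groups, with each library as a point and the mean of 2 libraries as a bar from 0. Cyp2d10 and Cyp21a1 are lowest in both PA libraries, Cyp1a1 is highest there, and Cyp2c68, Cyp2c70 and Cyp2c29 lie lower in PA and higher in LA than in Vehicle. The GC trend was not removed from these FPKM values.

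The next comparison asked the same of linoleate. With LA, 3 of 60 tested members rose and 1 fell relative to Vehicle, which is 6.7% of the tested members where 10.6% of all tested genes were called. The background was 3.53% higher and 7.11% lower. The median log2 fold change was 0.25 over the tested members and -0.01 over all genes. Cyp2c68 went from 27.6 and 25.3 FPKM in Vehicle to 42.7 and 43.2 in LA, a log2 fold change of 0.75 ± 0.11 (SE, n = 2 libraries per group; adjusted p = 0.000117 by edgeR's quasi-likelihood test). Cyp2c37, an arachidonic acid hydroxylase, went from 2.11 and 1.79 to 3.21 and 2.85 FPKM, and Cyp3a59 from 0.22 and 0.16 to 0.50 and 0.37 FPKM. The LA libraries were above those of Vehicle for these 3 genes without overlap. Cyp2c68 shares 62% of its 31-base sequences with other transcripts, most of all those of Cyp2c40, so its counts are uncertain in every comparison. The same holds for Cyp2c37, which shares 47.4%, mostly with Cyp2c50, and for Cyp3a59, which shares 49.9%, mostly with Cyp3a25.

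Cyp4f17 was the member that fell with LA, from 6.73 and 7.51 FPKM to 4.56 and 3.54. Its log2 fold change was -0.77. Por was at 45.4 and 46.0 FPKM in LA against 69.7 and 69.6 in Vehicle, a log2 difference of -0.56 ± 0.06 (SE, n = 2 libraries per group; adjusted p = 6.07e-06 by edgeR's quasi-likelihood test) that fell short of the fold threshold. With the GC trend removed, no member was called with LA, Cyp2c68 stood at 0.38, Cyp4f17 at -0.55 and Por at -0.25, and the median of the tested members was 0.03. Cyp2c37 lost its call without Vehicle replicate 2 or LA replicate 1, and Cyp3a59 in 9 of the 10 fits that left out a library.

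PA and LA were also compared directly, in a contrast added after the values were seen. The doses differed, 200 μM of palmitate and 12 μM of linoleate, so the contrast compares the treatments as given. Of the 60 tested members, 13 were lower in PA than in LA and 1 was higher, which is 21.7% and 1.7% of them, where 2.04% and 1.18% of all tested genes were called. In either direction 3.23% of all genes and 23.3% of the tested members were called. All 14 calls were kept with the GC trend removed, and the correlations with GC content were of one sign in all 4 libraries. Median GC content was 46.7% for the lower members and 47.6% for the uncalled.

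Members lower in PA than in LA included 5 of the 11 tested Cyp2c genes. Cyp2c68 was at 22.1 and 17.9 FPKM in PA and 42.7 and 43.2 in LA, a log2 difference of -1.14 ± 0.11 (SE, n = 2 libraries per group). Cyp2c70 was at 24.1 and 20.7 FPKM in PA and 46.9 and 38.5 in LA, a difference of -0.96. Cyp2c29 was at 3.11 and 3.25 FPKM in PA and 6.53 and 7.65 in LA, a difference of -1.16 with an adjusted p of 0.00023 by edgeR's quasi-likelihood test. For these 3 genes every PA library was below, and every LA library above, both Vehicle libraries in FPKM, and the same held for Cyp2c67 and Cyp2c38. The FPKM values carry the GC trend. With it removed, Cyp2c68 stood at 0.38 in LA against Vehicle and no member was called there.

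Cyp2c67 and Cyp2c38 differed by -0.61 and -1.61 between PA and LA, the latter at 0.38 FPKM or less. Cyp2c67 shares 67.6% of its 31-base sequences, so its counts are uncertain. In the Cyp2d subfamily, Cyp2d10, Cyp2d9 and Cyp2d22 differed by -0.84, -0.76 and -0.73. Cyp21a1, Cyp4a12a and Cyp2u1 differed by -1.20, -1.08 and -0.74, and Cyp1a1 was higher in PA by 1.5. The rarely read Cyp2a4 and Cyp3a59 completed the list. Cyp4f17, Cyp3a13 and Por did not pass, with differences of 0.18, 0.41 and 0.26. Most of the 14 calls were lost without LA replicate 1, and some without LA replicate 2 or PA replicate 2. The median over the tested members went from -0.40 to -0.32 without LA replicate 1 and to -0.31 without PA replicate 2. Cyp2c29, Cyp2c68, Cyp2c70, Cyp2d10 and Cyp21a1 were called in all 10 fits that left out a library. Among the hepatocyte markers, 4 of 11 tested genes were also lower in PA than in LA, namely Apoa1, Ttr, Serpina1a and Ahsg, at log2 differences from -1.44 to -0.74, and the part of hepatocyte number or state in the P450 values was not tested.

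**Figure D3:**
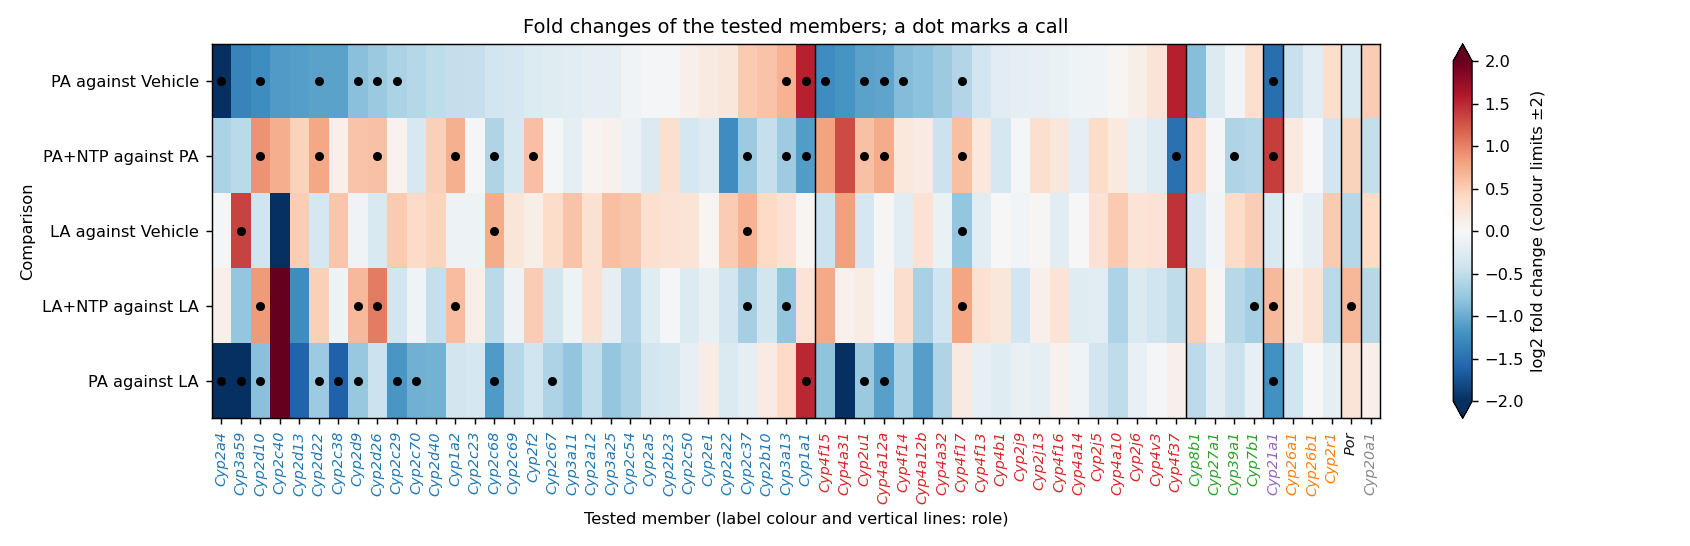
Log2 fold changes of the 60 tested members in 5 comparisons, grouped by role and ordered within a role by PA against Vehicle. Dots mark calls, colors are limited to ±2, and the saturated column of Cyp2c40 rests on 18 counts or fewer per library. The row of PA against LA is mostly blue, with 13 members lower and 1 higher.

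Pretreatment with NTP was compared with each FFA alone. With PA, NTP raised 9 of 60 tested members and lowered 6, 25% of the tested members, where 8.74% of all tested genes were higher, 5.11% lower and 13.9% called in either direction. The median log2 fold change of the tested members was 0.02. This comparison and the one of PA with Vehicle use the same PA libraries, so their values are not independent. Members that rose were Cyp2d10, Cyp2d22, Cyp2d26, Cyp1a2, Cyp2f2, Cyp2u1, Cyp4a12a, Cyp4f17 and Cyp21a1. Members that fell were Cyp1a1, Cyp3a13, Cyp2c37, Cyp2c68, Cyp39a1 and Cyp4f37.

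Cyp21a1 had the largest rise, from 1.37 and 1.64 FPKM in PA to 5.02 and 3.39 in PA+NTP, where Vehicle had 4.58 and 4.39. The log2 fold change was 1.38 ± 0.19 (SE, n = 2 libraries per group; adjusted p = 5.54e-05 by edgeR's quasi-likelihood test). Cyp2d10 rose by 0.90 and Cyp2d22 by 0.78 on the log2 scale, and the 2 PA+NTP libraries of each were above both PA libraries. The PA+NTP replicates lay apart for these genes, with Cyp2d22 at 7.09 and 4.30 FPKM and Cyp2d9 at 12.3 and 7.32 FPKM. Cyp4a12a, at 1.26 and 1.44 FPKM in PA+NTP, rose by 0.75. Cyp1a2, a caffeine and arylamine oxidase, went from 15.1 and 11.8 FPKM in PA to 25.5 and 19.2 in PA+NTP, a rise of 0.71.

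Of the members that fell with NTP, Cyp3a13 went from 63.7 and 71.0 FPKM in PA to 44.0 and 42.2 in PA+NTP, with Vehicle at 44.0 and 40.9. Its log2 fold change was -0.70 with an adjusted p of 3.99e-06 from edgeR's quasi-likelihood test. Cyp1a1 went from 1.11 and 0.66 FPKM to 0.38 and 0.44, a log2 fold change of -1.12. Cyp39a1, the 24-hydroxycholesterol 7α-hydroxylase, went from 7.43 and 7.35 FPKM in PA to 5.09 and 5.08, and Cyp2c68 from 22.1 and 17.9 to 15.5 and 11.6. Unlike those of Cyp3a13, the PA+NTP libraries of Cyp39a1 and Cyp2c68 lay below both Vehicle libraries.

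The count of calls with NTP on PA depended on the GC trend and on a library. With the trend removed, 6 calls of 15 were kept and none was added, comprising Cyp21a1, Cyp2d10, Cyp4a12a and Cyp1a2 as higher and Cyp1a1 and Cyp4f37 as lower. Cyp4f37 rests on few reads, at 0.34 FPKM or less and 33 counts or fewer in every library. Its call before removal was lost with DESeq2, with limma on either pseudocount and in 8 of the 10 fits that left out a library. Without PA+NTP replicate 1 most of the 15 calls were lost. The median over the tested members then went from 0.02 to -0.17, and that over all tested genes from 0.01 to -0.01. Cyp21a1, Cyp2d10 and Cyp3a13 were called whichever library was left out. The other 12 were each lost in 1 to 8 of the 10 fits, Cyp2c68 and Cyp4a12a among them without PA replicate 1 or PA+NTP replicate 2, and Cyp2d22 and Cyp1a2 without PA replicate 2 or PA+NTP replicate 1. Median GC content was 54.2% for the rising members and 43.6% for the falling ones. Kupffer cell markers summed to between 279 and 312 FPKM in PA+NTP and between 218 and 252 in PA. Most of that sum was Cd68, at 259 and 287 FPKM in PA+NTP and 195 and 232 in PA. Cd5l went from 1.16 and 1.31 FPKM in PA to 2.11 and 1.98 after NTP. Csf1r went from 0.47 and 0.52 to 0.79 and 0.96 FPKM, also without overlap. Lyz2, Marco, Clec4f and Adgre1 did overlap, and the defining markers Clec4f and Adgre1 were at most 1.12 FPKM. For the 7 Kupffer markers tested, NTP on PA gave 1 call, a rise. With the GC trend removed there was again 1 call, also a rise. The part of Kupffer cells in these values was not tested.

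With LA, 7 members were higher in LA+NTP than in LA and 3 were lower, 16.7% of the tested members, where 19.3% of all tested genes were called, 11.7% higher and 7.57% lower. Cyp2d26 had the largest rise, from 6.16 and 4.55 FPKM in LA to 12.5 and 10.1 in LA+NTP, and both LA+NTP libraries exceeded all 8 others. The log2 fold change was 1.02 ± 0.17 (SE, n = 2 libraries per group; adjusted p = 0.00017 by edgeR's quasi-likelihood test). Cyp2d10 went from 27.0 and 24.9 FPKM to 51.0 and 45.2, and Cyp2d9 from 11.4 and 9.89 to 18.9 and 15.5, rises of 0.85 and 0.65. Cyp4f17, Cyp21a1 and Cyp1a2 rose by 0.79, 0.64 and 0.62. The calls of Cyp2d9 and Cyp1a2 were lost without LA replicate 2 or LA+NTP replicate 1, that of Cyp21a1 without LA replicate 1 or LA+NTP replicate 1.

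Por completed the members that rose with NTP on LA, from 45.4 and 46.0 FPKM to 73.9 and 75.3, a log2 fold change of 0.67. On PA it went from 55.8 and 54.8 FPKM to 82.4 and 75.9, a difference of 0.46 that missed the fold threshold. In both FFA groups Por lay below all Vehicle, PA+NTP and LA+NTP libraries. Cyp3a13 fell from 52.8 and 48.1 FPKM in LA to 29.0 and 31.1 in LA+NTP, below Vehicle, with a log2 fold change of -0.79. Cyp7b1 fell from 17.8 and 18.1 FPKM to 11.7 and 11.5, and Cyp2c37 from 3.21 and 2.85 to 2.08 and 1.89, a call lost without LA replicate 1 or LA+NTP replicate 2. With the GC trend removed, Cyp2d26 was the only member called, at 0.79, and Por stood at 0.26, Cyp3a13 at -0.34 and Cyp7b1 at -0.22. The hepatocyte markers Apoa1 and Apoa2 and the stellate cell markers Col1a1 and Des were also higher with NTP on LA, by 0.65, 0.66, 0.84 and 0.73 on the log2 scale, and their part was not tested.

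Whether NTP acted differently on the 2 FFAs was tested as the difference of its effects. edgeR's quasi-likelihood test called no member and no other gene, with 6 of 60 members and 1029 of 14097 genes at an unadjusted p under 0.05, and DESeq2 called no member. The opposite signs of NTP on Cyp1a1, -1.12 on PA and 0.27 on LA, differed by -1.40 ± 0.49 (SE, n = 2 libraries per group; adjusted p = 0.634 by edgeR's quasi-likelihood test). A p of that size does not show that the effects were equal.

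Both NTP groups were also compared with Vehicle. In PA+NTP, 4 members were lower than in Vehicle and none was higher, 6.7% of the tested members, where 2.85% of all tested genes were called, 1.64% lower and 1.21% higher. These were Cyp2c70, Cyp2c68, Cyp39a1 and Cyp2a4, and all 4 calls were kept with the GC trend removed. Cyp2c70 was at 18.5 and 18.7 FPKM in PA+NTP against 34.8 and 32.8 in Vehicle, a log2 fold change of -0.89 with an adjusted p of 8.3e-05 from edgeR's quasi-likelihood test. Cyp2c68 differed by -0.99 and Cyp39a1 by -0.66. The calls of Cyp2a4 and Cyp39a1 were lost without Vehicle replicate 2 and Vehicle replicate 1, respectively. Without PA+NTP replicate 1 more members were called lower, and the median over the tested members went from -0.25 to -0.31. Over all tested genes that median went from 0.010 to 0.015. Beside these values, the hepatocyte markers Apoa1 and Ahsg were lower in PA+NTP than in Vehicle and the Kupffer cell markers Marco, Adgre1 and Lyz2 higher, also with the GC trend removed, and their part was not tested.

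In LA+NTP, Cyp2a12, a steroid hydroxylase, was called as higher than in Vehicle, and it alone among 60 tested members, where 0.0922% of all tested genes were called, 0.0567% higher and 0.0355% lower. It went from 6.44 and 7.05 FPKM to 10.1 and 10.5, a log2 fold change of 0.61 with an adjusted p of 0.0474 from edgeR's quasi-likelihood test. DESeq2 did not call it, and the call was lost without any single library of Vehicle, LA or LA+NTP.

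**Figure D4:**
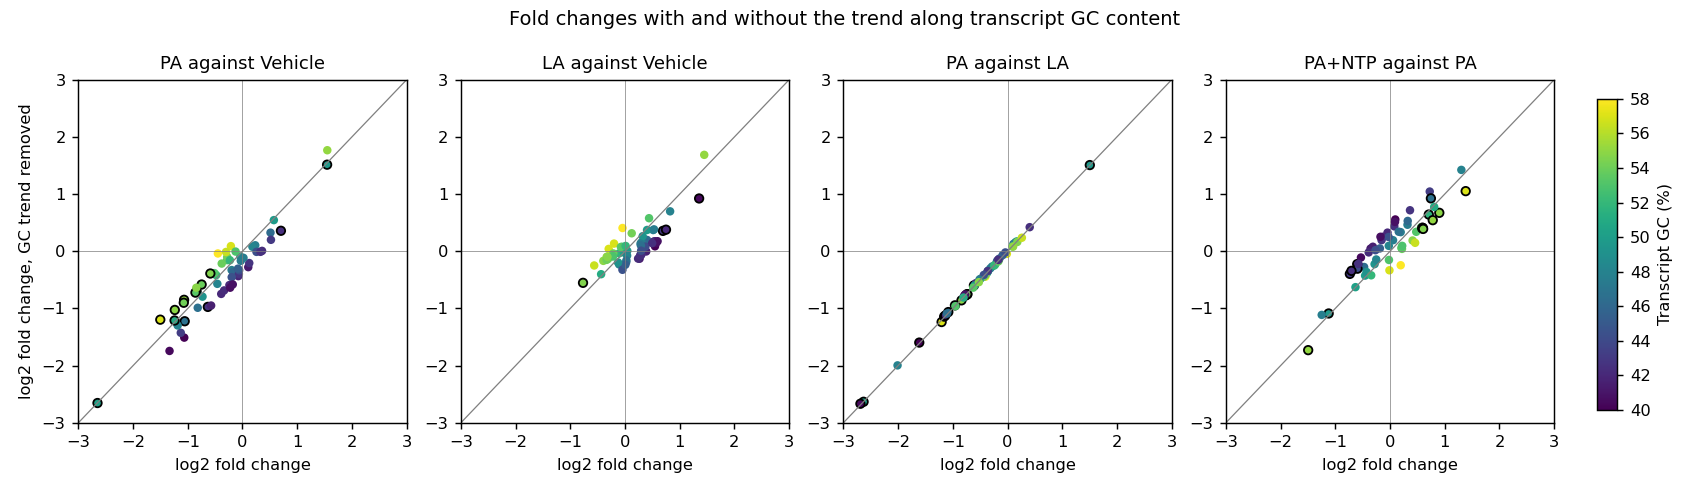
Log2 fold changes of the tested members before (horizontal axis) and after (vertical axis) removal of the trend along transcript GC content, colored by GC content, with calls before removal ringed. Points lie on the diagonal for PA against LA, where all 14 calls were kept, and shift with GC content in the comparisons with Vehicle and with NTP.

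Summed levels were also compared by role. The xenobiotic group summed to 632 and 634 FPKM in Vehicle, 566 and 585 in PA, 545 and 490 in PA+NTP, 757 and 739 in LA and 711 and 692 in LA+NTP. The fatty acid group stayed between 157 and 179 FPKM in all 10 libraries, with Vehicle at 174 and 168. The bile acid group summed to 79.9 and 74.0 FPKM in Vehicle and 67.7 and 68.8 in PA. The xenobiotic sum was above both Vehicle libraries in LA and LA+NTP and below both in PA and PA+NTP, and most of it was Cyp2a5, at 399 and 426 FPKM in LA.

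Genes that serve or control the P450s were described from 4 lists. Of 8 redox partners and heme-binding helpers, Cyb5r3, the cytochrome b5 reductase, and Fdxr, which supplies electrons to mitochondrial P450s, fell with PA by 0.76 each on the log2 scale, and Fdxr fell by 0.71 with LA. With NTP, Fdxr rose by 0.69 on PA and 0.74 on LA, Cyb5r3 by 0.65 on LA, and Pgrmc1, a heme-binding partner of P450s, fell by 0.62 on PA. Of 13 genes of heme synthesis and breakdown, Alad fell by 0.60 with PA and Ppox rose by 0.63 with NTP on PA. Neither of the 2 tested epoxide hydrolases was called. With the GC trend removed, none of these calls was kept, but 1 redox gene and 1 heme gene were then called as higher with PA. In PA against LA, 1 gene of the heme list was called as higher before that removal and 1 after it.

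Among the receptors and regulators, falls with PA included Nr0b2 (-1.78), the bile acid-induced repressor SHP, Dbp (-1.05), a clock-controlled activator, Rara (-0.78), Rxrg (-0.74) and Hnf4a (-0.73), on the log2 scale. Tiparp, a target of the aryl hydrocarbon receptor, rose by 0.73. With LA, Rara, Rxrg and Klf15 fell by 0.72, 0.70 and 0.59. Nr0b2 and Rara were higher with NTP on both FFAs, and Cebpb, a factor of the acute-phase response, was lower with NTP on PA by -0.68. With the GC trend removed, Nr0b2 was the regulator called lower with PA, at -1.44, while Hnf4a stood at -0.46 and Tiparp at 0.37. In the same fit none of the falls with LA or rises with NTP named here was kept. Cebpb was then called higher with PA and with LA, at 1.27 and 0.62, and lower with NTP on PA and on LA, at -1.38 and -1.29, where without that removal the values were 0.58, -0.15, -0.68 and -0.29.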

How the data were processed

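RNA sequencing of 10 libraries was analysed. The authors aligned reads with HISAT and Bowtie2 to mm10 and quantified genes with RSEM, with versions not given in the sources used here. The deposited expected counts are not normalized. The deposited FPKM values, called RPKM in the methods, were scaled by the authors for length and depth, with lengths set by RSEM, and genes under 0.01 FPKM are not listed and were taken as 0. Groups came from the labels, and the NTP dose from the study's text.

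Counts were rounded and fitted with edgeR 4.0.16 in R 4.3.3 (all 10 libraries, TMM, filterByExpr, quasi-likelihood test), leaving 14097 genes. On data simulated for PA against Vehicle over 14127 genes, 88.5% of 200 genes changed 3-fold were recovered, with 2 false calls. Smaller changes were not simulated, and the simulated counts held no GC trend and no replicate offset. These figures therefore do not give the recovery or false calls for changes near 1.5-fold in the real libraries. NOISeq, the authors' test, was not run. Symbols came from RefSeq GRCm38.p6. GC content and shared 31-base sequences came from GENCODE M21 transcripts, and 24 tested members shared over 25% of theirs.

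Members, lists and the rule for named genes (called members with a mean of at least 1 FPKM, the 5 highest in Vehicle, and 25 anchor genes) were chosen with earlier results of these data known; other members are named where they complete a list of calls. Alternatives were DESeq2 1.42.0, library-size scaling, other filters, limma 3.58.1 on log2(FPKM + 1) and log2(FPKM + 0.1), no fold threshold, only the groups compared, a replicate block, removal of a GC trend (loess, span 0.4) and leaving out each library. One regulator of the lists is not reported here.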

Additional observations from a re-analysis of the deposited data

Results flagged for a closer look

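In 2 of the 60 tested members NTP moved the level in opposite directions on PA and on LA without overlap of the libraries. With 2 libraries per group such a separation is weak, and its share over all genes was not counted. Whether it was more common among the members is therefore not known. For Cyp1a1 the NTP effect on PA minus that on LA was -1.40 on the log2 scale, with 1.11 and 0.66 FPKM in PA, 0.38 and 0.44 in PA+NTP, 0.30 in both LA libraries and 0.31 and 0.42 in LA+NTP. For Cyp2c29 the difference was 0.46, with 3.11 and 3.25 FPKM in PA, 3.43 and 3.59 in PA+NTP, 6.53 and 7.65 in LA and 6.22 and 4.98 in LA+NTP. Tested as a difference with edgeR's quasi-likelihood test, neither passed, at adjusted p of 0.634 and 0.679.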

How the results depend on the processing

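No called member changed direction under any alternative run, whereas some uncalled values did. With the GC trend removed, Cyp2j6 and Cyp7b1 went from 0.12 and 0.33 to -0.21 and -0.01 in PA against Vehicle. Without PA+NTP replicate 1, the median over the members for NTP on PA went from 0.02 to -0.17. With limma on log2(FPKM + 1), the calls for LA against Vehicle went from 3 higher and 1 lower to 1 higher and 2 lower. Without a fold threshold the calls were 26 for PA against Vehicle, 17 for LA against Vehicle, 25 for NTP on PA, 25 for NTP on LA, 8 for PA+NTP against Vehicle and 2 for LA+NTP against Vehicle. These are of 60 tested members, and of all 14097 tested genes 6411, 5824, 6306, 7257, 1425 and 40 were then called, in the same order. limma on log2(FPKM + 1), which shrinks the folds of low genes, gave 8 for PA against Vehicle, 5 for NTP on PA and 5 for PA against LA. Over all tested genes it gave 1239, 1192 and 252 calls in these comparisons. Removal of the GC trend, alone or with the replicate block, left 0 for LA against Vehicle, 6 for NTP on PA and 1 for NTP on LA. Alone, it left 496, 895 and 863 calls over all tested genes in these comparisons. The single call of LA+NTP against Vehicle became 0 with DESeq2, with a mean of at least 1 FPKM, with limma on either pseudocount and with the GC trend removed, and 2 without a low-count filter, with only the groups compared and with the replicate block, also with the GC trend removed. Leaving out each library gave 11 to 15 calls for PA against Vehicle, 2 to 5 for LA against Vehicle (2 without Vehicle replicate 2), 5 to 17 for NTP on PA, 7 to 12 for NTP on LA, 3 to 9 for PA+NTP against Vehicle, 0 to 2 for LA+NTP against Vehicle, 5 to 14 for PA against LA and 0 throughout for the difference of the NTP effects. The causes were not tested.

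Over all genes, the deviations of same-numbered libraries correlated between -0.07 and 0.13 and passed 0.1 in 2 of 10 pairs of groups. A weak correlation over all genes cannot exclude that replicate numbers paired the samples. Some members, such as Cyp3a11, Cyp1a2 and Cyp2d9, were higher in replicate 1 than in replicate 2 in every group, and others, such as Cyp2a5, were not. With the replicate block the calls were 13 for PA against Vehicle, 4 for LA against Vehicle, 13 for NTP on PA, 12 for NTP on LA and 15 for PA against LA. Over all 14097 tested genes the calls with the block were 2129, 1519, 1956, 2739 and 478, in the same order. Members under 1 FPKM, 44 of 84 in Vehicle, have few reads, and differences among them were mostly not detectable at this depth.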
